A study of Homo sapiens with 6 samples.

Results

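The cytosolic ribosomal protein genes were followed after knockdown of CPT2 in libraries labelled as HCT116 cells. They were taken by symbol, as RPL or RPS names with a number, the stalk proteins RPLP0, RPLP1 and RPLP2, and RPSA, without kinases of the RPS6K family and without names of pseudogenes. The rule found 86 of the 24154 genes in the table, of which 52 encode proteins of the large (60S) subunit and 34 proteins of the small (40S) subunit. HCT116 is an established line from a human colorectal carcinoma. Growing cells received siCPT2, an siRNA against CPT2 (labelled CPT2 knockdown, 3 libraries), or a negative control siRNA (labelled NC, 3 libraries), both for 48 h. Poly(A) RNA was sequenced, so the counts describe messenger RNA and neither protein nor assembled ribosomes. CPT2 is the inner mitochondrial membrane enzyme that frees long-chain acyl groups from carnitine for oxidation. No label states that replicates came from independent cultures, so the p-values describe the spread between these libraries, which may be technical.

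A ribosome is built from ribosomal RNA and about equal amounts of most ribosomal proteins. Ribosomal proteins are made in the cytoplasm, and most are imported into the nucleus and assembled there. In vertebrates the mRNAs of nearly all of these proteins begin with a C followed by an unbroken run of C and U, the 5′ terminal oligopyrimidine tract (TOP). The tract lets LARP1 and mTOR complex 1 set their translation together, a step that acts on translation and stability and that mRNA levels show only in part. A few genes have paralogues with narrower expression, such as RPL3L in muscle and RPL10L in testis.

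The bases at the start site show the feature that these mRNAs share. Of the 86 genes, 69 had an entry in the RefSeq promoter table (GRCh38.p14), with 85 start sites between them. A run of at least 6 C or T that reached within 5 bases of the start, on either side, was present at 59 of the 85 (69.4%). Of all 35116 RefSeq start sites, 22.2% had one. It was present at 35 of 55 large subunit sites (63.6%) and 24 of 30 small subunit sites (80.0%), and the median run was 10 bases, against 4 over all sites. The windows run from 15 bases before the start to 15 bases from it on, 5′ to 3′ on the strand of the gene, with the longest run of C and T near the start in capitals. The first 4 belong to genes with large differences between the groups, the next 3 to genes with differences near 0, and the last 6 are 3 genes, each followed by its paralogue.
RPL28: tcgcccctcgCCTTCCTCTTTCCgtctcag
RPL13A: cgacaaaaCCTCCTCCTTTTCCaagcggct
RPS16: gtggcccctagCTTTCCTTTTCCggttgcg
RPS15: tgcgcaggcgcggaCCaaagcgatctcttc
RPLP1: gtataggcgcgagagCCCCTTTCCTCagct
RPS12: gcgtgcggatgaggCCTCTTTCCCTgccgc
RPS13: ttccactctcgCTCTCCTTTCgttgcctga
RPS27: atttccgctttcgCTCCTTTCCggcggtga
RPS27L: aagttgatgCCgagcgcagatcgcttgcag
RPL26: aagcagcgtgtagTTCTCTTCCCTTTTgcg
RPL26L1: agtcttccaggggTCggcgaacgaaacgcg
RPL22: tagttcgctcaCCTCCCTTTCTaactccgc
RPL22L1: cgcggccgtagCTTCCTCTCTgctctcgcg
These windows lie at chr19:55385917-55385946 (plus strand) for RPL28, chr19:49487593-49487622 (plus strand) for RPL13A, chr19:39435935-39435964 (minus strand) for RPS16 and chr19:1438381-1438410 (plus strand) for RPS15. Those of the next 3 lie at chr15:69452803-69452832 (plus strand) for RPLP1, chr6:132814554-132814583 (plus strand) for RPS12 and chr11:17077653-17077682 (minus strand) for RPS13. The paralogue windows lie at chr1:153990747-153990776 (plus strand) for RPS27, chr15:63157463-63157492 (minus strand) for RPS27L, chr17:8383179-8383208 (minus strand) for RPL26, chr5:172958714-172958743 (plus strand) for RPL26L1, chr1:6199581-6199610 (minus strand) for RPL22 and chr3:170870181-170870210 (minus strand) for RPL22L1.

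The run can begin before the annotated start, so its length is not that of a tract within the mRNA. It is 13 bases long in RPL28, 14 in RPL13A and 12 in RPS16, and 11 in RPLP1, 11 in RPS12 and 10 in RPS13. Long runs thus stand both in genes with large and in genes with small differences. RPS15 has a run of 2 bases at the annotated start. RPS27L and RPL26L1 have runs of 2 bases, where RPS27 has 9 and RPL26 has 14. RPL22L1 has a run of 10 bases and RPL22 of 11. In the whole promoter window, from 250 bases before to 50 after the start and on both strands, the ETS motif CCGGAAG was found in 32.9% of the members' promoters, against 10.3% of all. The YY1 motif GCCATNTT was found in 12.9% against 6.58%, the SP1 motif GGGCGGG in 28.2% against 33.1%, the TATA box core TATAAA in 8.24% against 11.5% and the E-box CACGTG in 5.88% against 7.26%. These are matches of letters, and none was tested as a binding site.

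Libraries held 28353790 to 29449380 counts. CPT2 itself had 19.4, 21.3 and 19.0 CPM in the CPT2 knockdown libraries, against 23.6, 28.6 and 29.1 CPM in the NC libraries (counts per TMM-scaled library size, here and throughout in the order of replicates 1, 2 and 3), which left every knockdown library below every NC library, but edgeR did not call it (log2 fold change -0.44, SE 0.17, adjusted p = 0.338). CPT2 knockdown replicate 1 stood apart on the first principal component (47.3% of the variance), at -81.3 against -17.8 to 47.7 in the other libraries. Among epithelial markers, KRT8 and KRT18 were abundant at 609 to 1432 CPM, EPCAM was at 2.68 to 4.32 CPM, CDH1 at 1.03 to 2.90 CPM and VIL1 at 0 to 0.107 CPM. Of the markers of other cells, PTPRC, COL1A2, PECAM1 and DES lay between 0 and 1.07 CPM, and COL1A1 between 57.0 and 128 CPM. The markers of other cells summed to 78.0 to 129.7 CPM in the CPT2 knockdown and 58.4 to 78.1 CPM in NC, nearly all of it COL1A1. EPCAM, CDH1 and VIL1 are typical of colorectal epithelium and were low or absent, and COL1A1 is typical of fibroblasts and was present, so these 4 genes go against the label HCT116 in both groups, while KRT8 and KRT18 are keratins of simple epithelium. In each marker list 4 of 5 genes were tested, with 3 above 0 and 1 below, 0 called by edgeR or DESeq2 and 1 higher at an unadjusted p under 0.05, a level at which 9.18% of all genes tested were higher and 5.29% lower. Their part in the results was not tested.

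The 52 large subunit genes took 2.67%, 2.31% and 2.77% of all counts in CPT2 knockdown replicates 1, 2 and 3, against 2.41%, 2.01% and 2.46% in NC replicates 1, 2 and 3. The mean was 2.58% ± 0.245 in the CPT2 knockdown and 2.29% ± 0.247 in NC (SD, n = 3 each). The 34 small subunit genes took 1.60%, 1.36% and 1.74% in CPT2 knockdown replicates 1, 2 and 3, against 1.46%, 1.19% and 1.49% in NC replicates 1, 2 and 3. Their mean was 1.57% ± 0.195 in the CPT2 knockdown and 1.38% ± 0.164 in NC. In both subunits, CPT2 knockdown replicates 1 and 3 lay above every NC library and replicate 2 lay within the NC range. Replicate 2 was the lowest library of both groups, and each CPT2 knockdown library lay above the NC library of its number. The differences of 0.288 and 0.188 percentage points were close to the SD within a group, which takes no account of the replicate numbers. With NC replicate 2 left out they were 0.146 and 0.0942. They were 0.193 and 0.1004 when CPT2 knockdown replicate 3 was dropped, and 0.427 and 0.293 when its replicate 2 was. In bulk libraries, a different mix of cells and a different amount of these mRNAs per cell cannot be told apart.

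**Figure D1:**
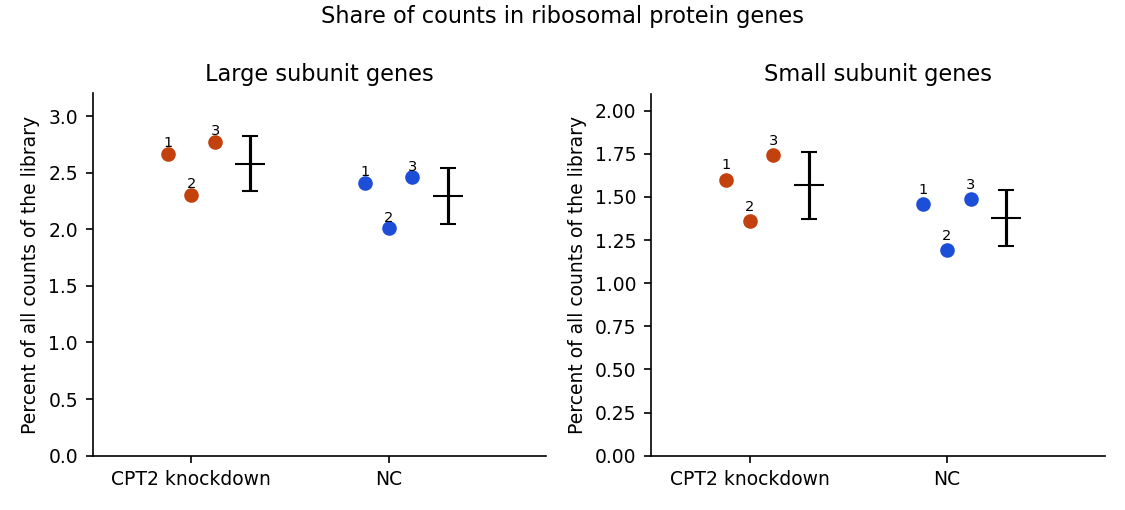
Percent of all counts of a library (vertical axes, from 0) in large subunit genes (left panel) and small subunit genes (right panel). Each numbered point is the replicate of that number of the CPT2 knockdown or NC, and the bar beside each group is the mean ± SD (n = 3); CPT2 knockdown replicate 2, at 2.31% and 1.36%, lies among the NC points in both panels.

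The balance between the subunits did not separate the groups. Large subunit counts over small subunit counts gave 1.67, 1.70 and 1.59 in CPT2 knockdown replicates 1, 2 and 3, against 1.65, 1.69 and 1.65 in NC replicates 1, 2 and 3. Transcripts of mitochondrial DNA took 17.0%, 15.6% and 8.99% of counts in CPT2 knockdown replicates 1, 2 and 3, against 10.5%, 10.8% and 10.0% in NC replicates 1, 2 and 3. With them left out of the totals, the differences were 0.437 and 0.278 percentage points. The large subunit share was then 3.21%, 2.73% and 3.05% in the CPT2 knockdown, against 2.70%, 2.25% and 2.73% in NC. The small subunit share was then 1.93%, 1.61% and 1.92% in the CPT2 knockdown, against 1.63%, 1.33% and 1.65% in NC.

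Gene by gene, the same direction appeared across both subunits, at a size that no single gene carried past the test. Of the 86 genes, 82 were tested: 50 of the large and 32 of the small subunit. The others were RPL3L, RPL10L, RPS4Y1 and RPS4Y2. The log2 fold change (CPT2 knockdown over NC, scaled by TMM) was above 0 in 47 of 50 large and 30 of 32 small subunit genes, against 50.7% of all 15302 genes tested. The median was 0.26 in the large subunit (range -0.33 to 0.90) and 0.26 in the small subunit (range -0.092 to 0.82), against 0.0083 over all genes. All of these genes were read in the same libraries, so the counts are not independent of each other.

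edgeR's quasi-likelihood test called 0 genes of either subunit at an adjusted p of 0.05 (lowest adjusted p = 0.338), where it called 0.0131% of all genes. At an unadjusted p under 0.05, 15 large and 7 small subunit genes were higher in the CPT2 knockdown, against 9.18% of all genes, and 0 were lower, against 5.29% of all genes. DESeq2 called 0 large subunit genes and 1 small subunit gene, RPS15 (adjusted p = 0.034), against 0.122% of the genes to which it gave an adjusted p. limma-voom called 0 of both, and only 1 of all 15302 genes. limma-trend on the deposited FPKM called 0 of both, and 0 of all 12103 genes it tested. All 3 CPT2 knockdown libraries lay above all 3 NC libraries in 18 large and 7 small subunit genes, against 12.2% of all genes, and below them in 1 large subunit gene, RPL7L1, again against 12.2%. The counts at an unadjusted p under 0.05 depended on single libraries. They were 23 and 17 without CPT2 knockdown replicate 2, 9 and 6 without CPT2 knockdown replicate 3, and 4 and 3 without NC replicate 2. The shares of all genes past that p, in either direction, were 35.9%, 9.18% and 3.23% in these 3 repeats, and 14.5% with all libraries. The small subunit median was 0.15 without NC replicate 2.

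The libraries of a group differed from each other as much as the groups did. Relative to the NC mean of each gene, the median large subunit gene stood at 0.46, 0.010 and 0.31 (log2) in CPT2 knockdown replicates 1, 2 and 3, against 0.10, -0.21 and 0.11 in NC replicates 1, 2 and 3. The median small subunit gene stood at 0.37, 0.019 and 0.37 in the CPT2 knockdown, against 0.11, -0.23 and 0.12 in NC. In CPT2 knockdown replicate 1, 66 of the 82 genes were above every NC library and 5 were below. The counts were 27 above and 14 below for replicate 2, and 71 above and 1 below for replicate 3. The same counts were not made over all genes, so they cannot be read as particular to the members. NC replicate 2 was the low library of its group in both subunits. Leaving it out made the log2 fold change over 1.5 times smaller in 26 of the 82 genes and turned its sign in 14, and leaving out CPT2 knockdown replicate 1 did so in 26 and 12. Leaving out CPT2 knockdown replicate 2 made it over 1.5 times larger in 27 genes. Nuclear-retained and intron-retaining transcripts, a sign of RNA composition, varied the other way by library. The median of 6 such genes (NKTR, SON, CCNL1, CCNL2, LUC7L3 and PNISR) stood at -0.81, 0.025 and -0.32 in the CPT2 knockdown, against -0.15, 0.23 and -0.094 in NC. Their summed level was 601 to 938 CPM in the CPT2 knockdown and 835 to 1068 CPM in NC, with 1 higher and 5 lower by fold change and 0 called by edgeR or DESeq2 (1 lower at an unadjusted p under 0.05, against 5.29% of all genes). Their part in the ribosomal protein values was not tested.

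**Figure D2:**
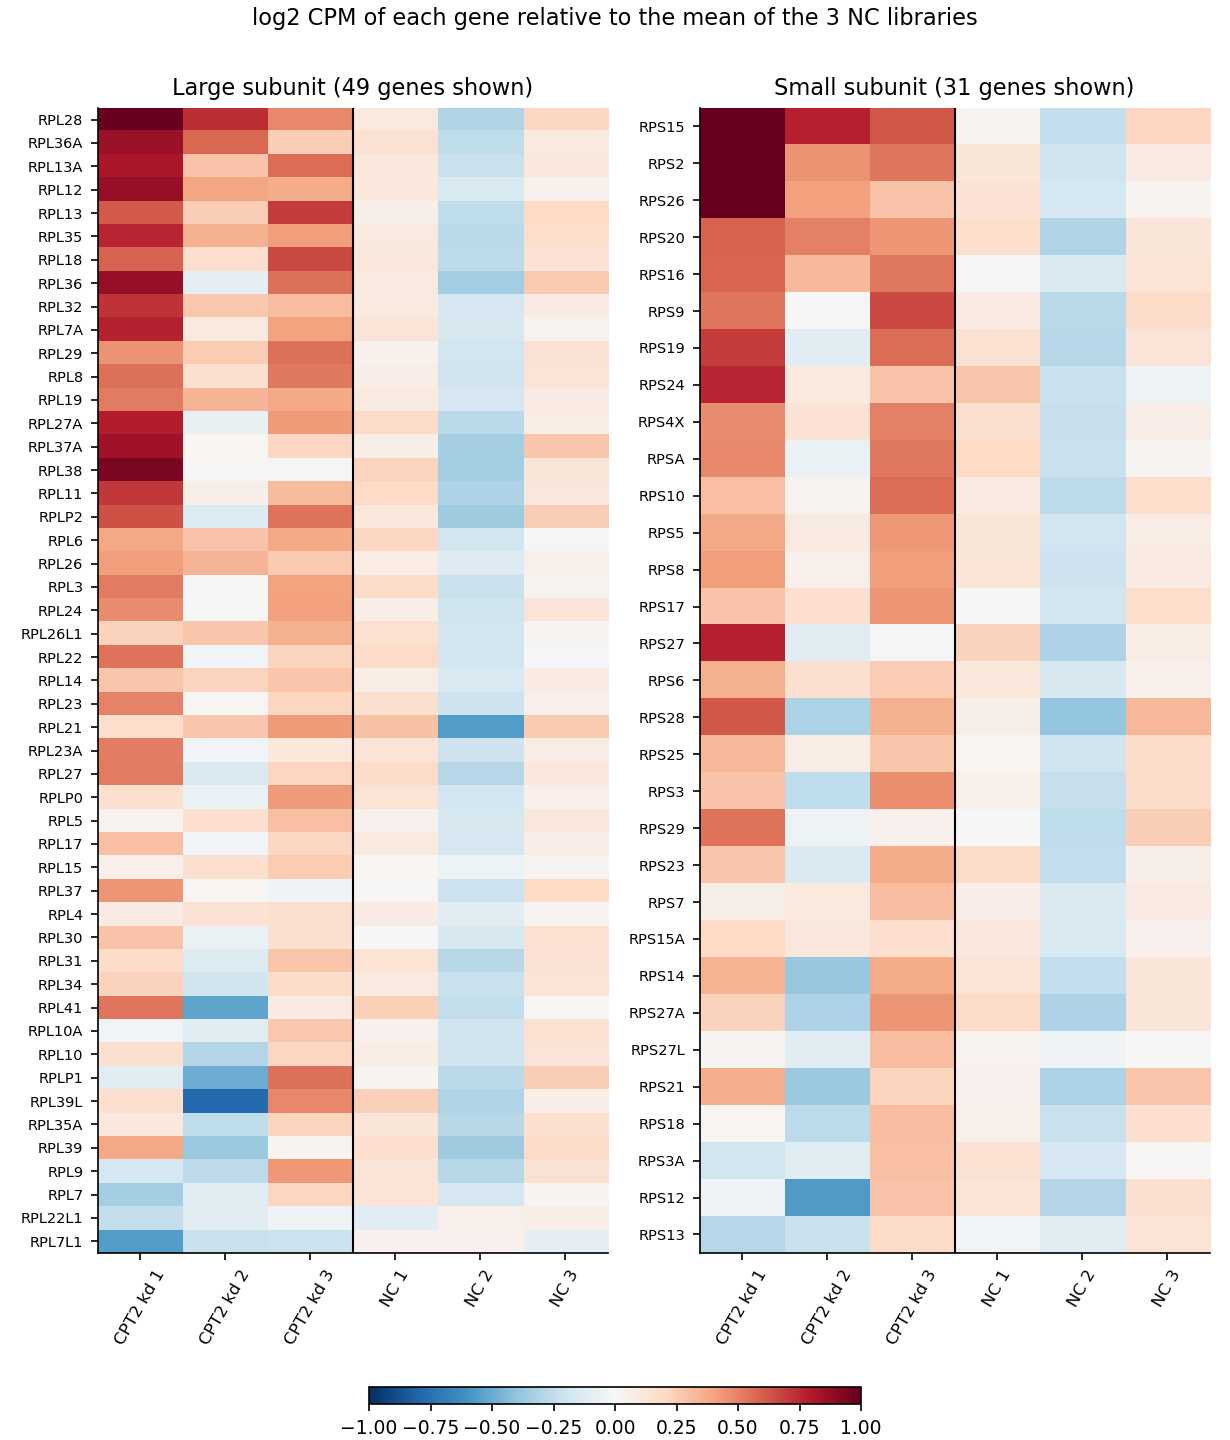
Level of the tested genes, less 1 of each subunit (rows, ordered by fold change), in each library (columns, CPT2 knockdown left of the line and NC right of it), as log2 CPM minus the mean log2 CPM of the 3 NC libraries; the colour scale stops at -1 and 1. CPT2 knockdown replicates 1 and 3 are red in most rows, replicate 2 is mixed (median 0.010 in the large and 0.019 in the small subunit), and NC replicate 2 is blue in most rows.

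In the large subunit, RPL28 had the highest fold change. RPL28 (ENSG00000108107, chromosome 19, 55385345 to 55403250 on the plus strand, GRCh38), a protein that budding yeast lacks, had 629.6, 406 and 338 CPM in the CPT2 knockdown libraries, against 259.5, 197 and 279.7 CPM in the NC libraries. All 3 CPT2 knockdown libraries were above NC (log2 fold change 0.90, SE 0.24, edgeR adjusted p = 0.338), with replicate 1 the highest, and the log2 fold change ran from 0.59 to 1.08 when 1 library was left out. RPL12, at the base of the stalk where translation factors bind, had 1295, 932 and 915 CPM in the CPT2 knockdown libraries, against 764, 636 and 730.2 CPM in the NC libraries (log2 fold change 0.56). RPL13A, also known as part of the interferon-gamma-activated inhibitor of translation in myeloid cells, had 1844, 1273 and 1540.0 CPM in the CPT2 knockdown libraries, against 1131, 896 and 1125 CPM in the NC libraries (log2 fold change 0.56). In these 3 genes the groups did not overlap. RPL19 also separated the groups, with a smaller difference, at 890.5, 784 and 809 CPM in the CPT2 knockdown libraries, against 659, 553 and 657 CPM in the NC libraries (log2 fold change 0.41, SE 0.13). RPL13 had 578, 448 and 615 CPM in the CPT2 knockdown libraries, against 394, 318 and 435 CPM in the NC libraries (log2 fold change 0.52, SE 0.17). Its groups did not overlap.

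RPL5, RPL11, RPL23, RPL3 and RPL10, named here for binding MDM2 or for places in the large subunit, had log2 fold changes of 0.036 to 0.37. RPL5 and RPL11, which together with 5S rRNA bind and inhibit MDM2, had log2 fold changes of 0.17 (SE 0.14) and 0.37 (SE 0.20), and of 0.091 for RPL5 without NC replicate 2 and 0.17 for RPL11 without CPT2 knockdown replicate 1. RPL11 had 639.8, 409 and 489.8 CPM in the CPT2 knockdown libraries, against 451, 317 and 424 CPM in the NC libraries, with replicate 1 far above the other CPT2 knockdown libraries. RPL23, which also binds MDM2, had a log2 fold change of 0.25 (SE 0.17), and it was 0.098 without CPT2 knockdown replicate 1, 0.15 without NC replicate 2 and -0.11 on log2(FPKM + 1). RPL3, near the peptidyl transferase centre, had one of 0.32 (SE 0.18), or 0.20 to 0.45 when 1 library was left out. RPL10, which joins the subunit late in its maturation, had 442, 322 and 459 CPM in the CPT2 knockdown libraries, against 416, 344 and 433 CPM in the NC libraries (log2 fold change 0.036, SE 0.17). Its groups overlapped and its sign changed under several settings.

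The genes of the 3 stalk proteins had log2 fold changes of 0.030 to 0.36, with SEs of 0.16 to 0.26, and were not tested against each other. RPLP0, the stalk base protein, had 1581, 1357 and 1903 CPM in the CPT2 knockdown libraries, against 1557, 1244 and 1473 CPM in the NC libraries (log2 fold change 0.18, SE 0.16). RPLP1 had 253, 194 and 400.3 CPM in the CPT2 knockdown libraries, against 278, 228 and 324 CPM in the NC libraries (log2 fold change 0.030, SE 0.26). RPLP2, which pairs with RPLP1 on the stalk, had 244, 143 and 228 CPM in the CPT2 knockdown libraries, against 169, 123 and 186 CPM in the NC libraries (log2 fold change 0.36, SE 0.23). The CPT2 knockdown libraries of RPLP1 spanned more than its NC libraries, and in all 3 stalk genes the groups overlapped. When 1 library was left out, RPLP0 ran from 0.044 to 0.28, RPLP1 from -0.31 to 0.23 and RPLP2 from 0.21 to 0.56. Once offsets removed each library's trend on transcript GC content and length, the log2 fold changes of RPLP0, RPLP1 and RPLP2 were -0.090, -0.078 and -0.20.

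In the small subunit, RPS15 had the highest fold change and was the 1 gene that any test without a replicate block called. RPS15 (ENSG00000115268, chromosome 19, 1438358 to 1440494 on the plus strand, GRCh38), a protein of the subunit's head near the decoding site, had 478, 392 and 353 CPM in the CPT2 knockdown libraries, against 235, 193 and 265 CPM in the NC libraries. Every CPT2 knockdown library was above every NC library (log2 fold change 0.82, SE 0.17, edgeR adjusted p = 0.338, DESeq2 adjusted p = 0.034). Leaving out 1 library at a time, its log2 fold change ran from 0.68 to 0.93. RPS2 (ENSG00000140988, chromosome 16, 1962052 to 1964860 on the minus strand, GRCh38), at the mRNA entry channel, had 2916, 1968 and 2083 CPM in the CPT2 knockdown libraries, against 1563, 1254 and 1519 CPM in the NC libraries (log2 fold change 0.68, SE 0.18). RPS16, whose tail reaches the P-site tRNA, had 513, 429 and 493 CPM in the CPT2 knockdown libraries, against 342, 309.8 and 376 CPM in the NC libraries (log2 fold change 0.48, SE 0.14). RPS26, at the mRNA exit channel, had 377, 246 and 226 CPM in the CPT2 knockdown libraries, against 204, 164 and 189 CPM in the NC libraries (log2 fold change 0.60, SE 0.21). RPS20 had 338, 317 and 304 CPM in the CPT2 knockdown libraries, against 254, 182 and 244 CPM in the NC libraries (log2 fold change 0.50, SE 0.16). The groups did not overlap in any of these 5 genes, and CPT2 knockdown replicate 1 was the highest library in each.

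RPS6, RPS19, RPS14, RPSA, RPS3 and RPS27A, named here for their roles in disease, signalling or elsewhere, had log2 fold changes of 0.14 to 0.41. RPS6, the substrate of the S6 kinases, had 1385, 1214 and 1297 CPM in the CPT2 knockdown libraries, against 1167, 972 and 1127 CPM in the NC libraries (log2 fold change 0.25, SE 0.13). RPS19, often mutated in Diamond-Blackfan anaemia, had 629.7, 358 and 569.6 CPM in the CPT2 knockdown libraries, against 431, 317 and 423 CPM in the NC libraries (log2 fold change 0.41, SE 0.22). RPS14, whose loss marks the 5q- syndrome, had 384, 232 and 392 CPM in the CPT2 knockdown libraries, against 329.7, 255 and 329 CPM in the NC libraries (log2 fold change 0.14, SE 0.21). RPSA, also known as a laminin receptor, had a log2 fold change of 0.33 (SE 0.19), RPS3 at the mRNA entry channel 0.19 (SE 0.20), and RPS27A, made as a fusion with ubiquitin, 0.14 (SE 0.21). By library size alone, RPS14 and RPS27A stood just below 0, at -0.0033 and -0.0014, and with GC and length offsets RPS14 and RPS19 stood at -0.16 and -0.15. When 1 library was left out, the log2 fold change ran from 0.18 to 0.31 in RPS6, 0.24 to 0.61 in RPS19, 0.016 to 0.34 in RPS14 and 0.031 to 0.37 in RPS3. In RPS19 and RPS14, replicate 2 was the lowest CPT2 knockdown library and lay within or below the NC range.

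The genes at the low end were few. RPL7L1, a paralogue of RPL7 that takes part in making the large subunit, had 113, 143 and 144 CPM in the CPT2 knockdown libraries, against 172, 172 and 157 CPM in the NC libraries (log2 fold change -0.33, SE 0.15). Every CPT2 knockdown library was below every NC library, and its log2 fold change with GC and length offsets was -0.049. RPS12 had 228, 158 and 286 CPM in the CPT2 knockdown libraries, against 256, 191 and 261 CPM in the NC libraries (log2 fold change -0.077, SE 0.23). RPS13 had 148, 155 and 206 CPM in the CPT2 knockdown libraries, against 177, 167 and 198 CPM in the NC libraries (log2 fold change -0.092, SE 0.16). RPS3A had a log2 fold change of 0.0083 (SE 0.17) and RPL7 of -0.066 (SE 0.17). The groups overlapped in RPS12, RPS13, RPS3A and RPL7.

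The paralogues were expressed far below their partners, and only RPL26L1 and RPL7L1 among them separated the groups by CPM. RPS27 had 415 ± 115 FPKM in the CPT2 knockdown and 385 ± 66.4 FPKM in NC (SD, n = 3 each), and RPS27L, a p53-induced paralogue, had 8.25 ± 2.75 FPKM in the CPT2 knockdown and 9.05 ± 1.39 FPKM in NC. RPL22 had 233 ± 33.5 FPKM in the CPT2 knockdown and 209 ± 19.4 FPKM in NC, and RPL22L1 had 7.29 ± 0.916 FPKM in the CPT2 knockdown and 9.32 ± 0.936 FPKM in NC. RPL39 had 333 ± 63.8 FPKM in the CPT2 knockdown and 359.9 ± 69.3 FPKM in NC, and RPL39L had 10.3 ± 4.34 FPKM in the CPT2 knockdown and 11.0 ± 1.84 FPKM in NC. All 3 partners were thus listed at levels far above their paralogues. RPL26 had 559 ± 11.3 FPKM in the CPT2 knockdown and 461 ± 30.5 FPKM in NC, and RPL26L1 had 74.0 ± 8.30 FPKM in the CPT2 knockdown and 67.0 ± 7.09 FPKM in NC. The log2 fold change from counts was 0.26 for RPS27 and 0.088 for RPS27L, 0.26 for RPL22 and -0.13 for RPL22L1, 0.026 for RPL39 and 0.030 for RPL39L. By CPM, the groups overlapped in these 6 genes. By FPKM, those of RPL22L1 did not overlap, at 6.65, 6.89 and 8.34 in the CPT2 knockdown libraries, against 8.42, 9.27 and 10.3 in NC. For RPL26 and RPL26L1 the log2 fold change was 0.34 (SE 0.13) and 0.28 (SE 0.15), with every CPT2 knockdown library above every NC library by CPM in both. RPL26L1 had 54.7, 56.3 and 59.5 CPM in the CPT2 knockdown libraries, against 51.8, 41.1 and 47.3 CPM in the NC libraries. Its groups overlapped by FPKM. RPS4X, the X-linked copy of its protein, had a log2 fold change of 0.37 (SE 0.16). RPL3L, the muscle paralogue of RPL3, had 6, 4 and 4 raw counts in the CPT2 knockdown and 2, 8 and 0 in NC, too few to test. RPL10L, the testis paralogue of RPL10, had 0 counts in every library, which allows up to 0.118 CPM (3 counts in the library with the smallest TMM-scaled size, counting error only).

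By deposited FPKM, the unit that takes length into account, the genes spanned several orders of magnitude. RPL7A was the highest, with 2454 ± 399 FPKM in the CPT2 knockdown and 1987 ± 166 FPKM in NC (SD, n = 3 each), and RPS2 followed with 2176 ± 282 FPKM in the CPT2 knockdown and 1513 ± 101 FPKM in NC. RPL12 had 1485 ± 174 FPKM in the CPT2 knockdown and 1108 ± 87.9 FPKM in NC, and RPLP0 had 1300.0 ± 315 FPKM in the CPT2 knockdown and 1250.0 ± 142 FPKM in NC. The SDs of RPL12 and RPLP0 overlapped in both groups. In the small subunit RPS2 was followed by RPSA with 963 ± 195 FPKM in the CPT2 knockdown and 829.5 ± 103 FPKM in NC and RPS24 with 962 ± 159.7 FPKM in the CPT2 knockdown and 806 ± 129 FPKM in NC, which did not differ from each other beyond their spread. Over the genes above 0, the median FPKM was 283 in the large and 498 in the small subunit, 31 of the 86 genes averaged over 500 FPKM, and 7 averaged under 20 FPKM.

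**Figure D3:**
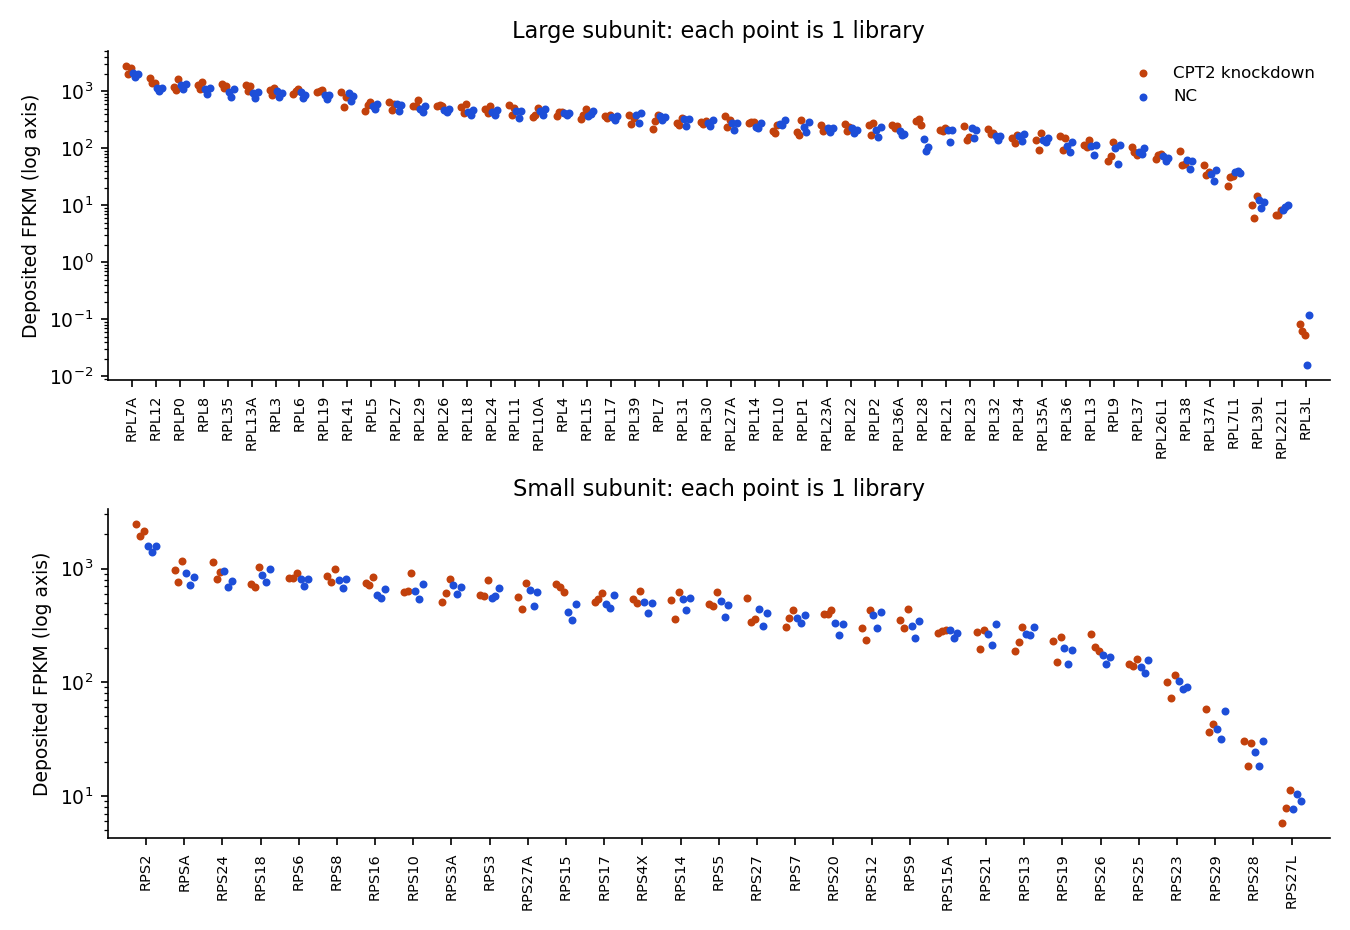
Deposited FPKM (vertical axes, logarithmic) of the genes above 0, less 1 of each subunit, large subunit above and small subunit below, ordered by mean level, with 1 point per library and the CPT2 knockdown left of NC. RPL7A and RPS2 head the subunits, RPL3L is listed at 0 in NC replicate 3 and has no point there, and for most genes the points of the groups intermix.

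Ribosomal protein mRNAs are short, and other genes with short mRNAs had median fold changes as high. The median principal transcript was 904 bases in the large and 752 bases in the small subunit, against 2852 bases over all tested genes. The 28 tested members of 296 to 644 bases had a median log2 fold change of 0.30, against 0.32 in the 205 other tested genes of that length, and 27 of the 28 members and 152 of the 205 others (74.2%) were above 0. In that range the members stood at 0.52, 0.0029 and 0.30 in CPT2 knockdown replicates 1, 2 and 3, and the other genes at 0.60, -0.040 and 0.33. The 26 members of 646 to 1028 bases had a median of 0.29, against 0.33 in 705 other genes, with 25 of 26 members and 579 of 705 others (82.1%) above 0. The 28 members of 1063 to 7686 bases had a median of 0.20, against -0.018 in 11232 other genes, with 25 of 28 members and 5458 of 11232 others (48.6%) above 0. That range is wide, and members and other genes were not matched in length within it. Each length is that of 1 annotated transcript, such as 7686 bases for RPL37 and 4916 for RPL27A. The lengths of the mRNAs in these libraries were not measured, so members may stand in the wrong range. The per-library pattern of the members, CPT2 knockdown replicate 2 near 0 and NC replicate 2 low, was present in the other short genes too. The part of length in the result was not tested.

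**Figure D4:**
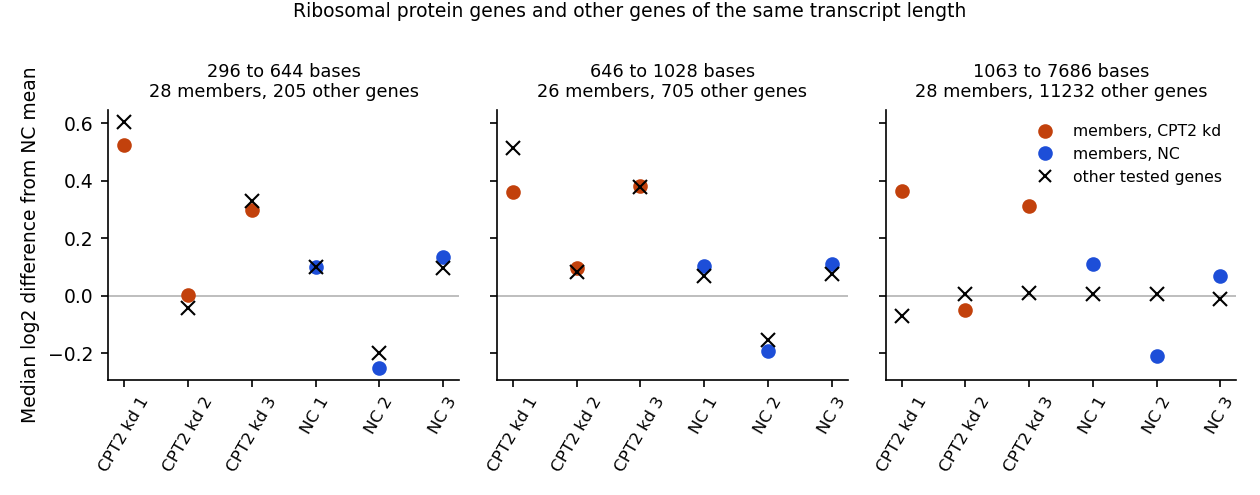
Median log2 difference from the NC mean (vertical axis) in each library (horizontal axis, CPT2 knockdown left of NC), in 3 ranges of principal transcript length. Circles are members and crosses are all other tested genes in the same range, not matched in length within it. Circles and crosses run close together up to 1028 bases; in the range of 1063 to 7686 bases the members of CPT2 knockdown replicates 1 and 3 lie above the crosses.

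The fold changes also followed GC content. In the 28 members with the highest transcript GC content (52.3% to 64.1%) all 28 were above 0, with a median of 0.42, against 0.26 in other genes of that GC content. In the 27 members of 42.1% to 47.0% GC the median was 0.16, with 24 above 0, against -0.22 in other genes. Over the 82 members, which share libraries and base composition, Spearman's rho between GC content and log2 fold change was 0.51, and between length and log2 fold change -0.11. With the offsets described next, these were -0.27 and 0.39. With the GC and length offsets, the median was 0.065 in the large subunit (31 of 50 above 0) and 0.010 in the small subunit (16 of 32 above 0), against 0.0058 and 50.8% over all genes. At an unadjusted p under 0.05, 6 large and 5 small subunit genes were then higher, against 5.77% of all genes, and 0 large and 4 small subunit genes were lower, against 6.29% of all genes. Length offsets alone gave medians of 0.031 (27 of 50 above 0) and 0.012 (18 of 32), against 50.8% of all genes, while GC offsets alone gave 0.32 (48 of 50) and 0.33 (28 of 32), against 51.4%.

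The size of the remaining difference depended on which transcript stood for a gene. With the longest transcript of any type, the medians with offsets were 0.16 in the large and 0.20 in the small subunit, and with the longest coding transcript 0.053 and 0.13. The principal transcript was chosen after these values were seen. With offsets, RPL28 had a log2 fold change of 0.43, RPS15 of 0.33 and RPS2 of 0.27. RPL37A, RPL37 and RPS27L, picked here after their values were seen, had larger fold changes with offsets (0.74, 0.62 and 0.52) than without (0.38, 0.14 and 0.088). The offsets took their lengths as 3647, 7686 and 6434 bases, those of their annotated principal transcripts.

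**Figure D5:**
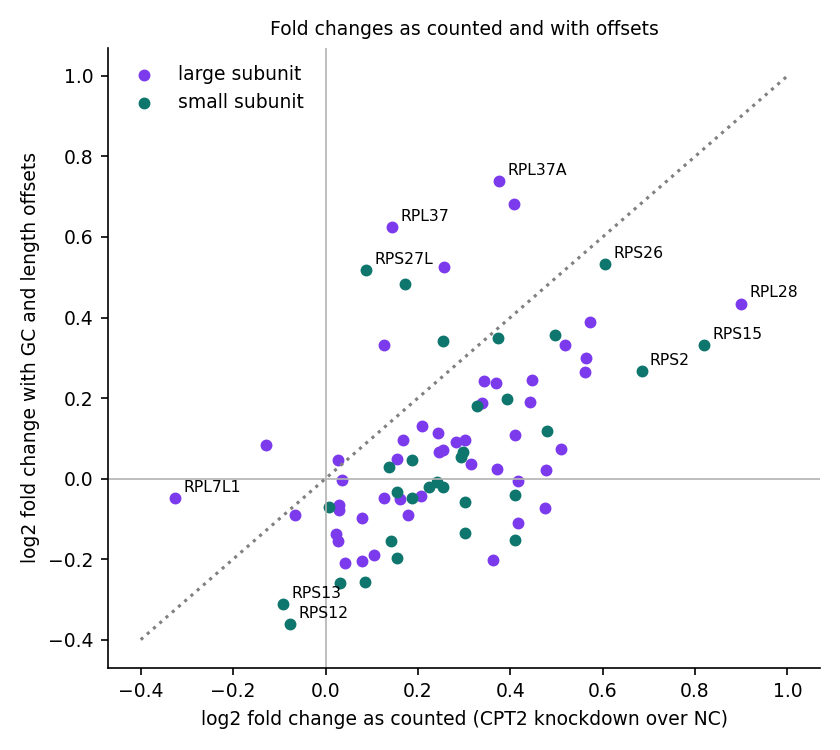
Log2 fold change, CPT2 knockdown over NC, of the tested genes, less 1 of each subunit, with GC and length offsets (vertical axis) against the value as counted (horizontal axis), for the large subunit (purple) and small subunit (green). The dotted line marks equal values; most points, RPL28, RPS15 and RPS2 among them, lie below it, and RPL37A, RPL37 and RPS27L lie above it.

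How libraries are scaled also set the size. By library size alone the median was 0.11 in the large subunit (34 of 50 above 0) and 0.10 in the small subunit (24 of 32), but the median over all genes was then -0.13. On log2(FPKM + 1), which lowers the fold of low genes, the medians were 0.16 (34 of 50) and 0.13 (24 of 32), against -0.10 and 39.7% over all genes. Relative to all genes, both subunits were higher under each of these scalings.

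Ribosomal proteins whose names fall outside the rule showed the same direction. All 4 had a log2 fold change above 0, with a median of 0.34, and 0 were called by edgeR or DESeq2, with 1 higher at an unadjusted p under 0.05, where 9.18% of all genes were higher. RACK1, a scaffold on the small subunit's head, had 2048, 1574 and 1842 CPM in the CPT2 knockdown libraries, against 1546, 1213 and 1373 CPM in the NC libraries (log2 fold change 0.40, SE 0.16), without overlap. RPL36AL had a log2 fold change of 0.40. With offsets the median of the 4 was 0.076.

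Other mRNAs known to carry a TOP tract, which code for elongation and initiation factors and related proteins, lay nearer to 0 without offsets, but not with them. Of 15, 10 were above 0 and 5 below, with a median of 0.10, and 0 were called by edgeR or DESeq2 (1 higher and 0 lower at an unadjusted p under 0.05, against 9.18% and 5.29% of all genes). EEF1D, a subunit of the exchange factor of EEF1A1, had 435, 258 and 409 CPM in the CPT2 knockdown libraries, against 262, 211 and 298 CPM in the NC libraries (log2 fold change 0.52, SE 0.22). EEF1G, another subunit of it, had a log2 fold change of 0.40 and TPT1 of 0.26. EEF1A1, the most abundant of the 15 by CPM, had 5323, 6555 and 7295 CPM in the CPT2 knockdown libraries, against 7092, 6603 and 6748 CPM in the NC libraries (log2 fold change -0.093, SE 0.16), with overlapping groups. With offsets the median of the 15 was 0.14, above the 0.065 of the large and the 0.010 of the small subunit.

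Genes that act on ribosomal protein mRNA or on the proteins themselves lay on both sides of 0. Of 8 chaperones of single ribosomal proteins, 6 were above 0 and 2 below (median 0.096), with 0 called by edgeR or DESeq2 and 1 higher at an unadjusted p under 0.05, a share close to the 9.18% of all genes. RPS19BP1, a binding partner of RPS19, had 36.9, 19.1 and 33.2 CPM in the CPT2 knockdown libraries, against 21.0, 16.3 and 21.5 CPM in the NC libraries (log2 fold change 0.60). GRWD1, the chaperone of RPL3, and TSR2, that of RPS26, had log2 fold changes of 0.30 and 0.33. Of 13 genes that control these mRNAs, 4 were above 0 and 9 below, with a median of -0.23, and 0 were called by edgeR or DESeq2 (2 higher and 2 lower at an unadjusted p under 0.05, against 9.18% and 5.29% of all genes). MTOR, the kinase upstream of TOP mRNA translation, had 91.5, 102 and 90.9 CPM in the CPT2 knockdown libraries, against 129, 138 and 117 CPM in the NC libraries (log2 fold change -0.44, SE 0.14), with every CPT2 knockdown library below NC. EIF4EBP1, a translation repressor that mTOR phosphorylates, had 75.2, 47.0 and 52.3 CPM in the CPT2 knockdown libraries, against 41.8, 37.5 and 39.6 CPM in the NC libraries (log2 fold change 0.55, SE 0.20). RPS6KB2, an S6 kinase, had a log2 fold change of 0.48 with overlapping groups. LARP1 and RPS6KB1, picked after their values were seen, lay lower in every CPT2 knockdown library than in any NC library. LARP1 had 254, 258 and 250.1 CPM in the CPT2 knockdown libraries, against 322, 329 and 284 CPM in the NC libraries (log2 fold change -0.29, SE 0.13). RPS6KB1, the other S6 kinase, had 24.0, 39.9 and 34.6 CPM in the CPT2 knockdown libraries, against 41.0, 45.5 and 40.1 CPM in the NC libraries (log2 fold change -0.36, SE 0.21, and 0.16 with offsets). With offsets the median of the 13 was 0.0083, and MTOR, EIF4EBP1 and RPS6KB2 stood at -0.28, -0.037 and 0.036.

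In the authors' deposited table, 3 of the members were called up: RPS15 (log2 fold change 0.83, unadjusted p = 4.92e-05), RPL28 (0.91, p = 0.000752) and RPS2 (0.69, p = 0.00124). None was called down. In the authors' deposited table a call needed an unadjusted p under 0.01 and a fold of 1.5, and 2.77% of all genes with a p were called up and 1.38% down.

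Which reads reached these genes is uncertain in part. Ribosomal protein genes have many processed pseudogenes, from 0 by name for RPL28 to 91 for RPL23A in the GENCODE annotation, and no source used here tells how reads matching several copies were counted. Exons of 9 members overlap another gene on the same strand, such as RPL17 with RPL17-C18orf32 and RPS10 with RPS10-NUDT3, and 21 overlap a gene on the opposite strand, which counting without strand could not separate. RPL28, RPS15 and RPS2 have 0, 2 and 20 pseudogenes by name.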

How the data were processed

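The authors deposited raw counts per gene and library, with FPKM beside them and, per the file headers, the p-value and log2 fold change of their DESeq2 comparison. The gene models and library sizes behind the FPKM are not given in the sources used here. The submitters' processing notes list the build GRCh38 and, with neither roles nor versions, edgeR, DESeq2, StringTie, Bowtie2, TopHat2 and HISAT2. The labels' protocol names oligo(dT) capture and random hexamers and no strand marking.

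All 24154 genes, 4180 of them new loci without a symbol, entered the library sizes, after 17 stray lines were dropped. Counts were tested over all genes in R 4.3.3 with edgeR 4.0.16 (filterByExpr, TMM, robust quasi-likelihood F-test, Benjamini-Hochberg, threshold 0.05), which kept 15302 genes. CPM use TMM-scaled sizes, and CPM and FPKM triplets run in the order of replicates 1, 2 and 3. Alternatives were DESeq2 1.42.0, limma 3.58.1 (voom, and trend on log2(FPKM + 1) of genes averaging at least 1 FPKM), other scalings, no filter, leaving out each library, a replicate block, and offsets from a loess (span 0.3) of each library on GC content and log2 length of the GENCODE 29 principal transcript, which covered 13205 genes. The test was checked on simulated counts. Sequences are from RefSeq.

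Members and lists were chosen with earlier results of these data known. Named genes were, in each subunit, the 5 with the smallest p, the 3 lowest fold changes, the 3 highest FPKM, those DESeq2 or the block called (up to 5), set members and paralogue pairs, and 3 per related list by p; 3 of the genes so chosen are not reported here. A planned permutation test of count shares is not reported, since it would test a sum over members chosen with results known.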

Additional observations from a re-analysis of the deposited data

How the results depend on the processing

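Over the alternatives run, both subunit medians stayed above 0, and the count shares moved by less than the spread between libraries. The large subunit median moved to 0.031 with length offsets alone and 0.039 with GC and length offsets without CPT2 knockdown replicate 1. The small subunit median moved to 0.010 with GC and length offsets, 0.012 with length offsets alone and 0.022 with GC and length offsets without CPT2 knockdown replicate 1. In the same order, the medians over all genes were 0.0058, 0.0084 and -0.012, so the subunit medians there lay close to those of all genes. Both the length offsets alone and the offsets without replicate 1 were chosen after seeing the data. DESeq2 called 1 small subunit gene. With the replicate block, edgeR called 7 large and 5 small subunit genes and 633 of 15302 genes in all, against 2 without it. Same-numbered libraries deviated together with correlations of 0.221, 0.299 and 0.0122, and each CPT2 knockdown library correlated best with its own number. The numbers were not taken as pairs in the main fit, whose spread thus includes any difference shared by libraries of a number. Of 1054 repeats for named genes, 981 kept direction and side of the threshold, 10 newly passed, and 63 turned the sign of the log2 fold change. With library size alone it was -0.11 for RPL10, -0.13 for RPL39, -0.11 for RPL39L, -0.10 for RPLP1, -0.0033 for RPS14, -0.0014 for RPS27A, -0.048 for RPS27L, -0.12 for RPS3A and -0.0076 for RPL37. With GC and length offsets it was -0.0042 for RPL10, 0.083 for RPL22L1, -0.15 for RPL39, -0.066 for RPL39L, -0.090 for RPLP0, -0.078 for RPLP1, -0.20 for RPLP2, -0.16 for RPS14, -0.15 for RPS19, -0.022 for RPS27, -0.071 for RPS3A, -0.037 for EIF4EBP1, -0.016 for KRT8 and 0.16 for RPS6KB1. By limma-trend on log2(FPKM + 1) it was -0.39 for RPL10, -0.11 for RPL23, -0.11 for RPL39, -0.15 for RPL39L, -0.12 for RPLP1, -0.037 for RPS14, -0.0048 for RPS27A, -0.15 for RPS27L, -0.073 for RPS3A and -0.0039 for RPL37. By limma-voom it was -0.044 for RPL39L, -0.019 for RPLP1 and -0.0014 for RPS3A. With the replicate block it was -0.037 for RPL39L, -0.020 for RPLP1 and -0.0023 for RPS3A. By DESeq2 it was -0.0017 for RPS3A. Without a filter on low counts it was -0.0042 for RPS3A. Leaving out 1 library at a time, it ran from -0.20 to 0.014 for EEF1A1, -0.059 to 0.18 for RPL10, -0.032 to 0.25 for RPL37, -0.19 to 0.19 for RPL39, -0.25 to 0.31 for RPL39L, -0.22 to 0.046 for RPL7, -0.31 to 0.23 for RPLP1, -0.29 to 0.12 for RPS12, -0.092 to 0.42 for RPS27, -0.030 to 0.32 for RPS27A, -0.038 to 0.17 for RPS27L and -0.16 to 0.091 for RPS3A. The cause was not tested. At this depth and spread, the median SE of a log2 fold change was 0.17 in the large and 0.18 in the small subunit.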
